A study of Mus musculus with 8 samples.

Results

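STING R284S, a single-residue variant of the human adaptor STING, was expressed in mouse embryonic fibroblasts (MEFs) that lacked their own STING, and the untreated R284S cells were set against untreated cells of the same background that carried only the empty vector pBabe. The pair makes up 2 of the 8 arrays in the study, taken by their titles, with 1 array on each side and no replicates. The groups used here are R284S control cells, the pBabe vector control cells they are set against, and R284S and vector cells transfected with dsDNA (double-stranded DNA) for 9 h by means of Lipofectamine 2000. Control cells with N154S, which the design text calls a SAVI mutant (SAVI is an autoinflammatory disease), and with hSTING (human STING, as labelled) are given for comparison, and all constructs also have 1 dsDNA array each. Every array came from STING-/- cells, labelled as primary MEF cells and grown in DMEM with 10% serum. It is not stated if controls got the reagent alone, if a construct was 1 clone or a pool, or how much STING protein each population made. pBabe is a retroviral vector, and its insertion sites are not given either. A difference between constructs therefore includes any other difference between the 2 populations.

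STING sits in the membrane of the endoplasmic reticulum. It binds the cyclic dinucleotide that the enzyme cGAS makes when it meets DNA in the cytosol, moves to the Golgi, and recruits the kinase TBK1, which activates the transcription factor IRF3, and it also engages NF-kappaB. IRF3 switches on type I interferon and some antiviral genes directly, and secreted interferon acts back on the cell through its receptor to switch on the wider set of interferon-stimulated genes. Gain-of-function forms of STING signal without DNA. Fibroblasts are the cells that lay down collagen and other extracellular matrix, and their identity is commonly read from collagens, small proteoglycans and platelet-derived growth factor receptors.

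The unit throughout is the deposited log2 array signal, and a difference is R284S minus vector on that scale, so that 1 is a 2-fold difference. Across 22180 genes with 1 symbol each, the median signal was 4.46 on the R284S control array and 4.45 on the vector control array, over all 8 arrays 4.42 to 4.47, and correlations between arrays were 0.973 to 0.989 across genes. Sting1, the mouse gene, read 3.95 in R284S control cells and 3.81 in vector control cells and was below the median on all arrays. The human sequence was not read out and the deleted part of Sting1 is not given, so the probe set checks no label. Markers of fibroblasts were present: 12 of 12 lay at or above the median in R284S cells, with signals of 5.02 to 12.64, and 12 of 12 in vector cells, at 5.80 to 12.78. For macrophages, 2 of 12 markers did so in R284S cells (Cd68 and Cd14, list range 2.63 to 6.32) and 3 of 12 in vector cells (2.48 to 6.01). For dendritic cells it was 0 of 6 in both, and for T and NK cells 1 of 9 in both. No macrophage, dendritic, T, NK or B cell marker was 2-fold or more apart. In these bulk samples fewer cells of a type and less RNA per cell cannot be told apart.

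A gene was counted as 2-fold or more apart when the brighter of the 2 arrays was at or above its own median. By that rule 256 of the 22180 genes were higher in R284S control cells, which is 1.15%, and 160 were lower, which is 0.721%. These shares over all genes are the background for each list count below. Most genes lay close together, with 88.6% within 0.5 of each other. At 4-fold or more there were 73 higher and 21 lower genes, and at 8-fold or more 39 higher and 2 lower, so the higher side reached much larger differences. Around the threshold, 52 genes lay within 0.05 above it and 60 within 0.05 below it. In vector cells alone, dsDNA against control had 33 genes (0.149%) higher and 8 (0.0361%) lower. The count of 256 became 160 when the brighter array had to reach its 75th percentile.

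**Figure D1:**
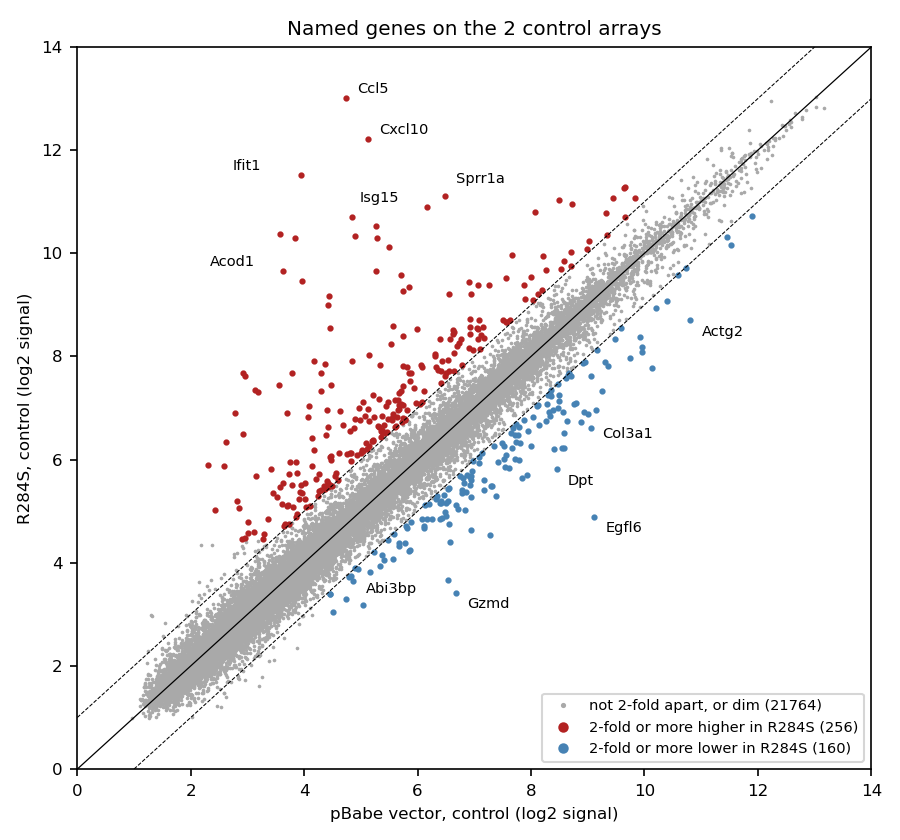
Log2 signal of every named gene on the R284S control array (vertical) against the vector control array (horizontal), 1 point per gene. The solid line marks equal signal and the dashed lines a 2-fold difference. The 256 higher genes reach 8.27 above the line of equality (Ccl5) and the 160 lower genes reach 4.22 below it (Egfl6).

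Which genes led the difference, and how did they read on the other arrays? Ccl5, a chemokine for T cells and monocytes, had the largest difference, with a signal of 13.01 in R284S control cells and 4.74 in vector control cells, 308.7-fold. With dsDNA it read 13.09 in R284S cells and 4.89 in vector cells. Next came Ifit1, an antiviral protein that binds foreign RNA ends, at 11.51 in R284S control cells and 3.94 in vector control cells. The R284S signals of both genes were nearly the same on the control and the dsDNA array, while in vector cells Ifit1 read 7.35 with dsDNA and Ccl5 stayed near its control value. The brightest signal was 13.20 on the R284S control array and 13.16 on the R284S dsDNA array, so Ccl5 read close to the top of the scale and a further change there might not be seen. Where the dimmer signal lay below its array's median, the fold was taken against that median and is a lower bound. For Ifit1 it was at least 133.4-fold.

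Cxcl10, a chemokine induced by interferon, read 12.21 in R284S control cells and 5.13 in vector control cells, 135.3-fold. The remaining genes among the 15 highest were Cmpk2, Oasl1, Acod1, Usp18, Rtp4, Oasl2, Ifih1, Rsad2, Gbp3, Zbp1, Isg15 and Serpinb9e, with differences of 6.81 down to 4.68. All but Ccl5, Cxcl10, Acod1 and Serpinb9e are in the interferon-stimulated list described next. Acod1, which makes itaconate and is best known from activated macrophages, read 9.65 in R284S and 3.63 in vector control cells, at least 36.76-fold. Of the 12 macrophage markers 0 passed the 2-fold rule. Mpeg1, Cd14 and Cd68 had the largest positive differences of the list, at 0.77, 0.76 and 0.31, and Lyz2 the largest negative one, at -0.47. Their part in the Acod1 difference was not tested. The N154S control signal of Acod1 was 7.18 and its hSTING control signal 3.24, so both variants lay well above hSTING in control cells. With dsDNA Acod1 read 9.90 in R284S, 10.42 in N154S, 10.76 in hSTING and 3.91 in vector cells. Usp18, which read 10.71 in R284S, 11.64 in N154S, 10.88 in hSTING and 4.84 in vector control cells, was high with all 3 constructs.

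The lowest gene was Egfl6, a secreted adhesion protein of the matrix, at 4.89 in R284S control cells and 9.11 in vector control cells, an 18.64-fold difference. With dsDNA it read 4.36 in R284S cells and 9.16 in vector cells. The rest of the 15 lowest were Gzmd, Abi3bp, Sprr2k, Dpt, Col3a1, S1pr3, Cdo1, Col6a3, Serpina3n, Gpc3, Tnn, Aspn, Sfrp1 and Galnt16, with differences of -3.25 to -2.17. Of these, Egfl6, Abi3bp, Dpt, Col3a1, Col6a3, Gpc3, Tnn and Aspn encode matrix or cell-surface matrix proteins. S1pr3, a receptor for sphingosine-1-phosphate, read 7.78 in R284S and 10.14 in vector control cells, and Cdo1, which oxidises cysteine, 6.23 in R284S and 8.58 in vector control cells. On all 15 genes the 4 control arrays stood in the order R284S, N154S, hSTING and vector from low to high, a pattern seen in 6.0% of all genes. Choosing the genes on these arrays puts R284S below vector in each, so the 6.0% is not a like background. It does not fix where N154S and hSTING stand, but a wide gap between R284S and vector leaves more room for them to fall between. On the dsDNA arrays, which were not used to choose them, 10 of the 15 stood in that order, and 4.17% of all genes did. Every gene counted as lower in control cells was also below vector with dsDNA, so the 4.17% is not a like background either. R284S had the lowest dsDNA signal in 11 of the 15.

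**Figure D2:**
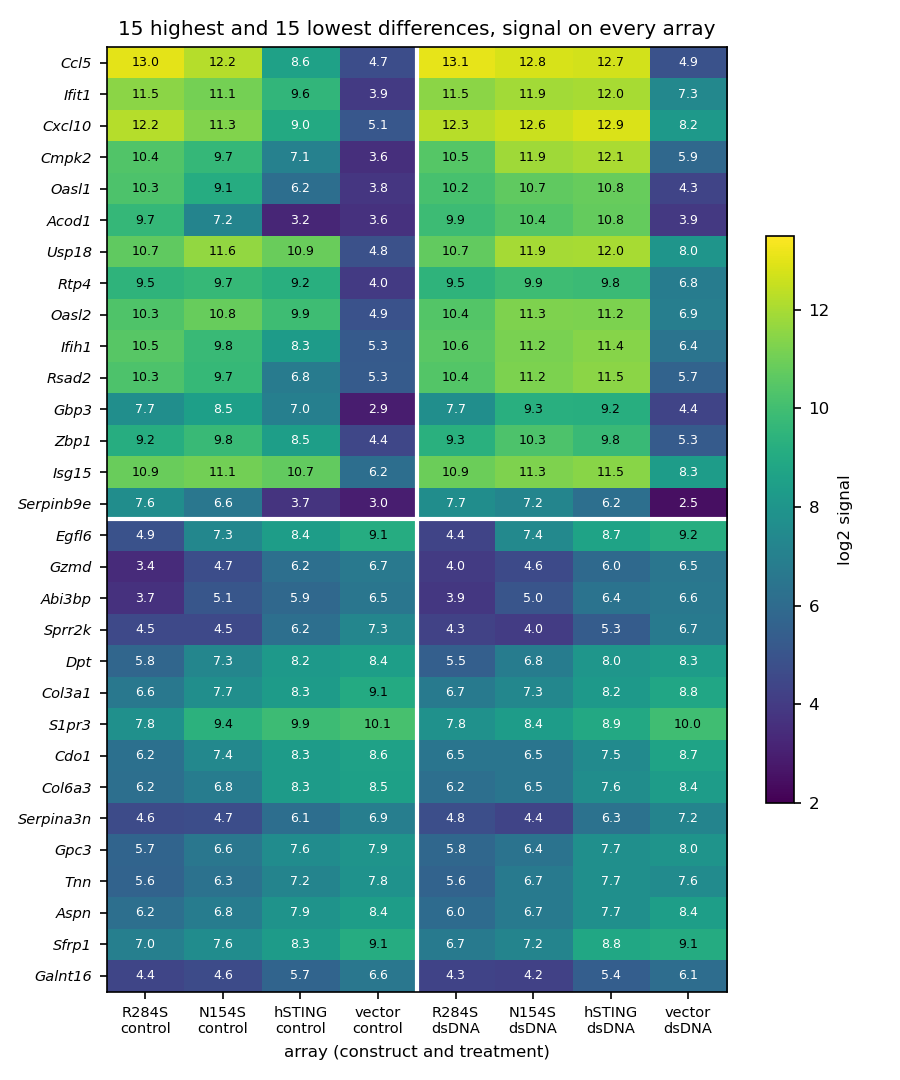
Log2 signal of the 15 genes with the highest and the 15 with the lowest R284S minus vector difference (rows) on all 8 arrays (columns, R284S leftmost in each treatment). In the upper block the R284S signal is nearly equal on the control and dsDNA arrays, for example 13.01 and 13.09 for Ccl5, and in the lower block every control row rises in brightness from the R284S to the vector column.

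Most interferon-stimulated genes were higher in R284S cells. Of the 79 listed, 69 were measured, 53 were 2-fold or more higher in R284S control cells and 0 were lower, and the list's median difference was 2.33, against 0.00 for all genes. The members span the family's roles. All 5 genes of the ISG15 conjugation system were higher: Isg15, the ubiquitin-like tag itself, read 10.89 in R284S and 6.17 in vector control cells, and Usp18, Herc6, Uba7 and Ube2l6 differed by 5.87, 3.08, 2.03 and 1.99. Of the OAS family, which makes the RNase L activator or related proteins, 5 of 6 were higher, led by Oasl1 at 10.29 in R284S and 3.83 in vector control cells. The genes of the sensors for viral RNA were higher in 3 of 3 cases: Ifih1 read 10.53 in R284S and 5.26 in vector control cells, Ddx58 9.21 and 6.56, and Dhx58 7.03 and 4.09.

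Among antiviral effectors 17 of 23 were higher and 0 lower. Rsad2, which encodes viperin, read 10.30 in R284S and 5.28 in vector control cells, and Bst2, the tetherin that holds virus particles at the cell surface, 10.81 in R284S and 8.07 in vector control cells. Of the interferon-inducible GTPases 7 of 9 were higher, led by Gbp3 at 7.68 in R284S and 2.93 in vector control cells. Zbp1, a sensor of left-handed nucleic acid that can start necroptosis, read 9.18 in R284S and 4.44 in vector control cells. Of the transcription factors that carry the interferon response, Irf7 (9.66 in R284S, 5.27 in vector control cells), Stat2 (9.26 and 5.74 in the same order) and Irf9 (8.34 and 6.39) were higher, and Irf1 differed by 0.94.

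Of the TRIM and PARP genes 7 of 8 were higher, among them the antibody receptor Trim21 (7.26 in R284S, 5.22 in vector control cells) and Parp14 (7.86 in R284S, 4.36 in vector control cells). Of 6 Ifi200 and DNA sensor genes 4 were higher, with Ifi204 at 7.32 in R284S and 3.19 in vector control cells.

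The list held exceptions. Ifi27 read 7.97 in R284S and 7.84 in vector control cells, Mx1 2.89 and 2.79 in the same order, and Slfn5, at 3.77 in R284S and 4.41 in vector control cells, was the single member with a negative difference. Ifitm3, abundant in both, read 12.04 in R284S and 11.49 in vector control cells. Ifit3b, Ifit1bl1 and Ifi209 differed by 2.17, 1.68 and 1.38 but stayed below the median and were not counted. Probes for the Ifi200 family, the pair Ifit3 and Ifit3b and other near-identical copies can cross-react, so single members of those families are uncertain.

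The genes' promoters were searched for the interferon-stimulated response element, a site bound by IRF family factors, here spelled GAAA, any 2 bases, then GAAA and read on both strands. RefSeq windows of GRCm38.p6, 250 bases before to 50 after each start, were held for 16918 of the 22180 genes, and 569 of them (3.36%) contained it. It was present in 27 of the 53 windows held for the interferon-stimulated list (50.9%), in 32 of 196 windows of the higher genes (16.3%) and in 5 of 109 windows of the lower genes (4.59%). Outside the list, 13 of 156 windows of higher genes contained it (8.33%). The kappaB-like pattern GGGA, any 4 bases, then CC was in 22.9% of all windows, 24.5% of those of higher genes and 30.3% of those of lower genes. The lower matrix genes had it in 9 of 18 windows and the response element in 1 of 18. The patterns can overlap one another, and a match describes the letters and is not a bound site. The 250 bases before the start are shown for 4 of the highest genes and 2 of the lowest, to set response elements beside the signals above, with matches to the response element in capitals. They were picked for what they hold: of the 15 highest genes 11 had a window, and 6 of these held the response element, while of the 15 lowest 12 had a window and 0 held it. Acod1 is among the highest without one. The positions are chr19:34640639-34640888, plus strand, for Ifit1, chr4:156200819-156201068, minus strand, for Isg15, chr12:26456453-26456702, minus strand, for Rsad2, chr5:92348890-92349139, minus strand, for Cxcl10, chrX:166585717-166585966, minus strand, for Egfl6, and chr1:45311288-45311537, plus strand, for Col3a1.
Ifit1: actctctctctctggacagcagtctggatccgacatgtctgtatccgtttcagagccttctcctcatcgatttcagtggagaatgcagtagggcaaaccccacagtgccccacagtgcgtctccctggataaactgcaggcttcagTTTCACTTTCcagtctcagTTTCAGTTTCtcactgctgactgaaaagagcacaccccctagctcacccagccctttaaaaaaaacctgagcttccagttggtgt
Isg15: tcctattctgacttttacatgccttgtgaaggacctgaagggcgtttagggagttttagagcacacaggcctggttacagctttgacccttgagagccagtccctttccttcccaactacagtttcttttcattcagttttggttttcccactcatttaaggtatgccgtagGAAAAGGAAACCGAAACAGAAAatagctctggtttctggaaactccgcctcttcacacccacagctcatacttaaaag
Rsad2: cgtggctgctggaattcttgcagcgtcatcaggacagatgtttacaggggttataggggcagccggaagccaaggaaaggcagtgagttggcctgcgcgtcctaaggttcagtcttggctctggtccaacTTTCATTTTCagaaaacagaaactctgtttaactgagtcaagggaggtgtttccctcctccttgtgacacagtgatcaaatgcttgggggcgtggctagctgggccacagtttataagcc
Cxcl10: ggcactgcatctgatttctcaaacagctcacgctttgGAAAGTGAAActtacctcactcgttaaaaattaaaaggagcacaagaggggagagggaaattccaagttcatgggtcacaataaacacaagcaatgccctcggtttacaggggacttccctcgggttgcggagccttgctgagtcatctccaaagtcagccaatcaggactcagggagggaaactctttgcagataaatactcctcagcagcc
Egfl6: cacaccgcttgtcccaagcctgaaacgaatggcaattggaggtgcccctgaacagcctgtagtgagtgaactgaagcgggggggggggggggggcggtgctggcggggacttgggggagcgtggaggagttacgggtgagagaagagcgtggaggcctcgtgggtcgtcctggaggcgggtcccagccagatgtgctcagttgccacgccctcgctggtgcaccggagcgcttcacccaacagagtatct
Col3a1: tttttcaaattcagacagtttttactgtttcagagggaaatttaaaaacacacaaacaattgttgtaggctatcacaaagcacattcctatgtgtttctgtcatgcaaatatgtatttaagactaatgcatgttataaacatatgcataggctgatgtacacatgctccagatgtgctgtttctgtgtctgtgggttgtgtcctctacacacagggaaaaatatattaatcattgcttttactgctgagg
Isg15 holds 3 overlapping matches, Ifit1 holds 2 on the strand opposite to the gene, and Rsad2 and Cxcl10 hold 1 each. Ccl5, Usp18 and Abi3bp are named only.

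The interferons themselves did not separate the cells. Of 26 measured interferons, receptors and receptor kinases, 0 were 2-fold or more higher or lower, with a median difference of -0.02 and a range of -0.46 to 0.88. Ifnb1, the first type I interferon that IRF3 induces, read 4.06 in R284S and 3.18 in vector control cells, and 3.04 in R284S and 3.18 in vector cells with dsDNA, all below the median. Both subunits of the type I receptor were well expressed, Ifnar1 at 8.73 in R284S and 8.93 in vector control cells and Ifnar2 at 9.13 in R284S and 8.79 in vector control cells. The kinases behind the receptor, Jak1, Jak2 and Tyk2, differed by 0.20, -0.10 and 0.16, and the lambda interferons Ifnl2 and Ifnl3 by -0.16 and 0.34. The alpha interferon genes are near-identical copies of each other and their single values are uncertain. Low signals here do not show that a transcript was missing.

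Components of the DNA-sensing pathway, listed apart from the sensors counted with the interferon-stimulated genes, hardly differed either. Of these 20 components 1 was higher and 0 lower, whereas 4 of the 6 Ifi200 and DNA sensor genes above were higher. The exception among the components was Adar, an RNA-editing enzyme that is itself interferon-stimulated, at 7.72 in R284S and 6.41 in vector control cells. Cgas read 4.64 in R284S and 4.91 in vector control cells, and Tbk1 7.92 and 7.46 in the same order. Irf3 read 5.96 in R284S and 6.02 in vector control cells. Ikbke, the kinase related to Tbk1, differed by 0.84, below the 2-fold mark. The remaining members, namely Sting1, Tbk1, Cgas and Irf3 above, the trafficking genes Surf4, Sec24c, Sec23b, Tmed2 and Stim1, the kinase adaptors Traf6 and Mavs, and Samhd1, Rab7, Ap3b1, Rnaseh2a, Rnaseh2b, Slc19a1 and Lrrc8a, differed by -0.41 to 0.46.

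Chemokines differed unevenly. Of 30 measured, 9 were 2-fold or more higher and 2 lower, where 1.15% of all genes were higher and 0.721% lower. Besides Ccl5 and Cxcl10 these were Cxcl11 (8.99 in R284S, 4.42 in vector control cells), Cxcl9 (5.69 in R284S, 3.15 in vector control cells), Ccl3 (5.95 in R284S, a difference of 2.10), Cxcl3, Cxcl16, Ccl4 and Ccl8. Cxcl11 is known as another ligand of the receptor CXCR3, but the annotation used lists the mouse gene as a transcribed pseudogene. The lower 2 were Cxcl14, at 8.38 in R284S and 9.92 in vector control cells, and the eosinophil attractant Ccl11, at 6.77 in R284S and 7.87 in vector control cells. Ccl2 and Ccl7, abundant in both, missed the mark with differences of 0.65 and 0.69. Of 29 cytokines only the alarmins Il1a (6.97 in R284S, a difference of 2.57) and Il33 (6.64 in R284S, 4.42 in vector control cells) were counted, while Il6 differed by 0.88 and Tnf by 0.16.

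Among 35 NF-kappaB genes 3 were higher and 0 lower, with a median difference of 0.15. Tnfaip3, the A20 feedback inhibitor, read 8.24 in R284S and 5.54 in vector control cells, and Nos2, the inducible nitric oxide synthase, 7.45 in R284S and 4.48 in vector control cells. Lcn2, an iron-sequestering secreted protein, read 8.66 in R284S and 7.56 in vector control cells. The inhibitor Nfkbia differed by 0.59, Icam1 by 0.88 and the subunits Rela, Relb, Rel and Nfkb2 by -0.04 to 0.04.

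Class I antigen presentation was higher in part, with 9 of 24 genes higher and 0 lower, where 1.15% of all genes were higher. The heavy chain H2-K1 read 9.39 in R284S and 7.26 in vector control cells, the chaperone Tapbp 9.53 in R284S and 7.56 in vector control cells, and the immunoproteasome subunit Psmb8 7.82 in R284S and 5.75 in vector control cells. The transporter genes Tap1 and Tap2 differed by 1.46 and 1.51, and the trimming peptidase gene Erap1 by 1.58. H2-Q4, H2-T10 and Psmb10 were the remaining higher members, and H2 heavy chain genes share sequence. H2-T10 is annotated as a transcribed pseudogene. The light chain B2m read 12.96 in R284S and 12.23 in vector control cells. Of 8 class II genes, H2-Ab1 was higher, at 7.53 in R284S and 5.86 in vector control cells, and the immune checkpoint ligand Cd274 read 5.96 in R284S and 3.75 in vector control cells.

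Matrix genes ran the other way. Over the collagens, the small leucine-rich proteoglycans and the other secreted matrix proteins together, 30 of 142 measured genes (21.1%) were 2-fold or more lower in R284S control cells and 1 was higher, against 0.721% of all genes lower. The median of these 142 genes was -0.26, and 108 were below 0, so the shift of most members was small beside that of the 30. Of the 43 collagens, 6 were lower and 0 higher. Col3a1, a fibrillar collagen of soft tissue, read 6.61 in R284S and 9.05 in vector control cells, 5.426-fold lower. All 3 chains of the classical collagen VI microfibril were lower: Col6a1 at 8.09 in R284S and 9.96 in vector control cells, Col6a2 at 6.73 in R284S and 8.88 in vector control cells, and Col6a3 at 6.22 in R284S and 8.54 in vector control cells.

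Col1a1, a chain of the main fibrillar collagen, read 10.16 in R284S and 11.53 in vector control cells, and Col12a1, which decorates fibrils, 9.57 in R284S and 10.59 in vector control cells. Their partner and neighbour genes were nearer to the vector. Col1a2 read 10.11 in R284S and 10.82 in vector control cells, and Col5a2, which assembles with type I collagen, 9.23 in R284S and 9.34 in vector control cells. Of the 26 genes for collagen processing, P4ha3, a prolyl hydroxylase subunit, was lower (8.34 in R284S, 9.48 in vector control cells) and Plod2, a lysyl hydroxylase, higher (9.29 in R284S, 8.20 in vector control cells). The crosslinking enzyme Lox was level, at 11.98 in R284S and 11.99 in vector control cells.

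The small leucine-rich proteoglycans, which bind collagen fibrils and set their spacing, held 5 lower and 0 higher members of 15. Aspn read 6.21 in R284S and 8.40 in vector control cells, Fmod 5.29 in R284S and 7.39 in vector control cells, and Lum 6.63 in R284S and 7.78 in vector control cells. Prelp and Podn differed by -1.74 and -1.75. The most abundant ones did not follow: Bgn read 12.84 in R284S and 13.03 in vector control cells, and Dcn 11.39 in R284S and 11.36 in vector control cells.

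Of the 84 other secreted matrix genes 19 were lower and 1 higher. Dpt, a small collagen-binding protein, read 5.81 in R284S and 8.45 in vector control cells, and Abi3bp 3.66 in R284S and 6.53 in vector control cells, at least 4.199-fold lower. Elastic fibre genes made up 5 of these: Fbln5 at 7.97 in R284S and 9.75 in vector control cells, and Mfap4, Fbln1, Fbn2 and Mfap5 with differences of -1.63, -1.44, -1.34 and -1.24. Among adhesive and matricellular genes, Tnn, Npnt, Tgfbi, Ccn3 and Cthrc1 differed by -2.20, -1.77, -1.46, -1.46 and -1.52, and Gpc3, a cell-surface proteoglycan, by -2.22. Fibronectin, Fn1, was level at 12.09 in R284S and 12.05 in vector control cells, and Sparc read 11.37 in R284S and 11.65 in vector control cells. The higher gene was Agrn, a basement membrane proteoglycan, at 8.05 in R284S and 6.31 in vector control cells.

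**Figure D3:**
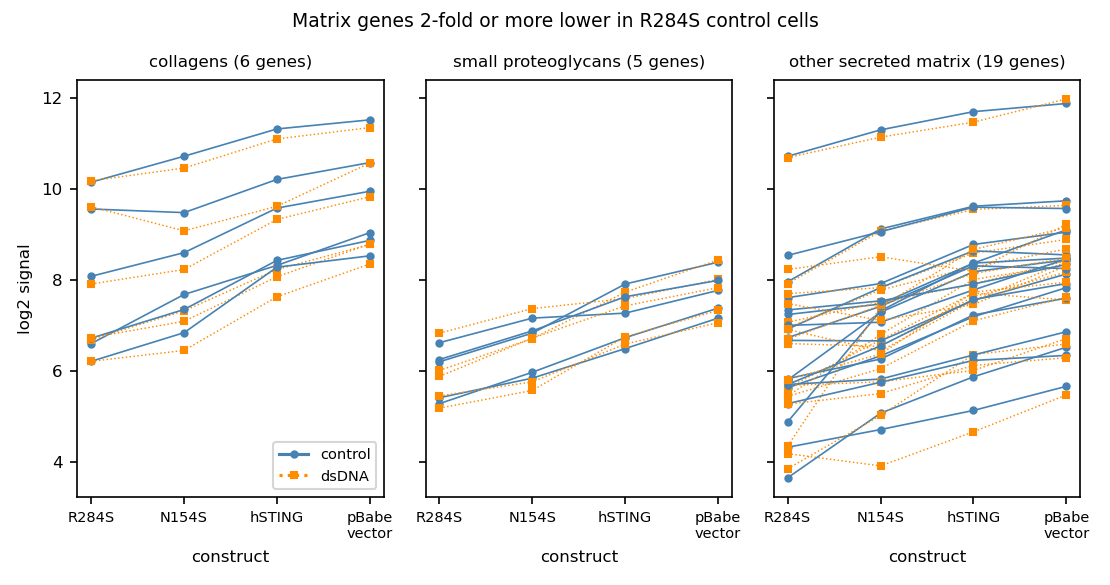
Log2 signal of the 30 matrix genes that were 2-fold or more lower in R284S control cells, 1 line per gene, by construct with R284S at the left. Solid lines with circles are control arrays and dotted lines with squares are dsDNA arrays. In control cells 25 of the 30 genes increase at each step from R284S through N154S and hSTING to vector, and 23 do so with dsDNA.

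Genes that turn matrix over were split. Of 15 matrix metalloproteinases 3 were 2-fold or more higher and 0 lower, but 9 were below 0 and the family's median was -0.21. Mmp13, an interstitial collagenase, read 11.07 in R284S and 9.44 in vector control cells, Mmp10 10.23 in R284S and 9.02 in vector control cells, and Mmp12 5.63 in R284S and 4.21 in vector control cells. On the other side, Timp3, a metalloproteinase inhibitor that binds matrix, differed by -1.32, and Adamts12 read 5.61 in R284S and 7.17 in vector control cells. Integrins split as well: the collagen receptor chains Itga11 and Itga1 differed by -2.13 and -1.40 and Itga8, which binds nephronectin, by -1.56, while Itga4 and Itga3 differed by 1.07 and 1.04.

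Mesenchymal surface markers were lower in part, and of the 12 fibroblast markers Col1a1, Col3a1, Pdgfra, Thy1 and Lum were 2-fold or more lower. Of 17 surface or cytoskeletal markers 4 were lower and 1 higher. Pdgfra, a receptor that marks fibroblasts, read 7.24 in R284S and 8.35 in vector control cells, Thy1 9.72 in R284S and 10.74 in vector control cells, and Cspg4 5.38 in R284S and 6.85 in vector control cells. Des, a muscle filament protein, was the fourth, and Mme, a surface peptidase, was the higher one (7.67 in R284S, 5.88 in vector control cells). Vim was level, at 12.64 in R284S and 12.78 in vector control cells. The transcription factors of mesenchyme hardly differed: of 53 measured, 1 was higher (Msx2, at 6.58 in R284S and 5.37 in vector control cells) and 0 lower, with a median of -0.04. Twist1 differed by -0.01, Twist2 by 0.05, Prrx1 by 0.17, Zeb1 by -0.13 and Snai1 by -0.49.

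All 26 smooth muscle and contractile genes lay below 0, with a median of -0.36, but 3 passed the 2-fold mark. These were Actg2, enteric smooth muscle actin, at 8.70 in R284S and 10.81 in vector control cells, and Des and Lmod1, with differences of -1.26 and -1.05. Acta2 read 12.82 in R284S and 13.17 in vector control cells, and Cnn1 10.62 in R284S and 11.53 in vector control cells. The 18 listed targets of YAP or SRF had 0 genes past the mark in either direction and a median of -0.05.

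Signalling genes of mesenchyme included 6 of 45 Wnt genes lower and 0 higher, where 0.721% of all genes were lower and 1.15% higher. Wnt antagonists made up 4 of them: Sfrp1 at 6.96 in R284S and 9.14 in vector control cells, Sfrp2 at 6.27 in R284S and 7.53 in vector control cells, and Frzb and Apcdd1 with differences of -1.24 and -1.05. The ligand Wnt4 and the receptor Lgr5 were the remaining 2. In the transforming growth factor beta and BMP list, the ligands Tgfb2 and Tgfb3 read 5.36 and 8.94 in R284S and 6.79 and 10.21 in vector control cells, while Bmp2 read 6.95 in R284S and 4.63 in vector control cells. Its 10 targets had 0 genes past the mark. Of 34 growth factor genes, Ptn and Igfbp6 were lower and Angpt1 and Vegfc higher, by -1.91, -1.07, 2.28 and 1.83.

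Many genes of amino acid supply were lower as well. ATF4 is the transcription factor of the integrated stress response. Among its 23 listed targets 9 passed the mark downward, against 0.721% of all genes, and 0 upward. The median of the 23 targets was -0.73. The amino acid carriers Slc7a5 and Slc7a3 read 8.18 and 4.23 in R284S and 9.96 and 5.85 in vector control cells. The serine pathway genes Psat1 and Phgdh differed by -1.37 and -1.04, the mitochondrial folate enzymes Mthfd2 and Aldh1l2 by -1.48 and -1.23, and Cth, which makes cysteine, by -1.80. Chaperones and other genes of the unfolded protein response stayed nearer to the vector, with 0 of 15 past the mark and a median of -0.01.

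Mitotic genes were slightly lower throughout. All 30 genes of the G2/M list had a negative difference, with a median of -0.62 and a range of -1.02 to -0.23, but 1 passed the 2-fold mark (Ube2c, at 7.46 in R284S and 8.48 in vector control cells). The 25 genes of G1/S and replication had a median of -0.18. Lysosome and autophagy genes were slightly higher, with 32 of 37 above 0 and a median of 0.30, and 0 passed the mark. The growth state of the cultures is not given in the labels. Of 13 reference genes 0 passed the mark: Gapdh differed by 0.06, Actb by -0.09, Eef1a1 by 0.06, Tbp by 0.02, Rplp0 by 0.03, Ywhaz by 0.02, Polr2a by 0.08, Sdha by 0.24, Gusb by 0.33, Hprt by 0.37, Pgk1 by 0.52, B2m by 0.73 and the transferrin receptor Tfrc by 0.85.

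Several families split between members. Among the serpins, Serpinb9e read 7.63 in R284S and 2.95 in vector control cells, at least 9.063-fold, while Serpina3n read 4.64 in R284S and 6.94 in vector control cells, and Serping1, the C1 inhibitor, 6.97 in R284S and 8.39 in vector control cells. Of the small proline-rich genes, which belong to the cornified envelope of skin, Sprr1a read 11.11 in R284S and 6.48 in vector control cells and Sprr2k 4.53 in R284S and 7.28 in vector control cells. Beside them, 3 of 10 keratinocyte and epithelial markers lay at or above the median in R284S cells, with a list range of 2.24 to 5.97, and 4 of 10 in vector cells, with a range of 2.37 to 5.47. Ivl, another envelope gene, was the 1 marker counted as higher, at 5.68 in R284S and 4.54 in vector control cells, and the part of such cells in the Sprr1a difference was not tested. Of 26 serpins 4 were higher and 2 lower, and of 20 small proline-rich and granzyme genes 2 were higher and 2 lower, among them the granzyme Gzmd at 3.42 in R284S and 6.67 in vector control cells. Of 32 metabolic enzymes 7 were higher and 1 lower, with Steap4, a metalloreductase, at 8.34 in R284S and 6.58 in vector control cells, and Lpl, lipoprotein lipase, at 5.32 in R284S and 6.46 in vector control cells. All lists in this report were chosen with earlier results of these data known, and these 3 because the families had stood out in these same samples. List counts, those of the matrix and interferon-stimulated genes included, are therefore no independent evidence of a direction.

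The remaining lists held at most 5 genes each past the mark in either direction. Over all genes 1.15% passed upward and 0.721% downward, and several of these lists lay above those shares. Of 27 cytokine receptors 2 were higher and 2 lower: the decoy receptor Il13ra2 read 5.20 in R284S and 2.82 in vector control cells, and Il1r1, the signalling receptor of interleukin-1, 7.08 in R284S and 8.75 in vector control cells. Of 25 cell death genes 5 were higher, among them the necroptosis effector Mlkl at 8.57 in R284S and 6.93 in vector control cells, and the inflammatory caspase Casp4 at 7.91 in R284S and 6.43 in vector control cells. The 5 include Zbp1 and Xaf1, which are also counted in the interferon-stimulated list. Of 14 immune surface ligands 1 was higher, Cd274, and 1 lower, the NKG2D ligand Ulbp1 (4.07 in R284S, 5.56 in vector control cells). Among 30 immediate-early genes 3 were lower, Egr1, Egr2 and Nr4a1, by -1.09, -1.01 and -1.05. Hmox1 and Akr1c18 were higher among 20 NRF2 targets, Ch25h, which makes 25-hydroxycholesterol, among 21 sterol genes, and Perp among 15 p53 targets. Of 29 complement genes 1, Serping1, was lower.

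**Figure D4:**
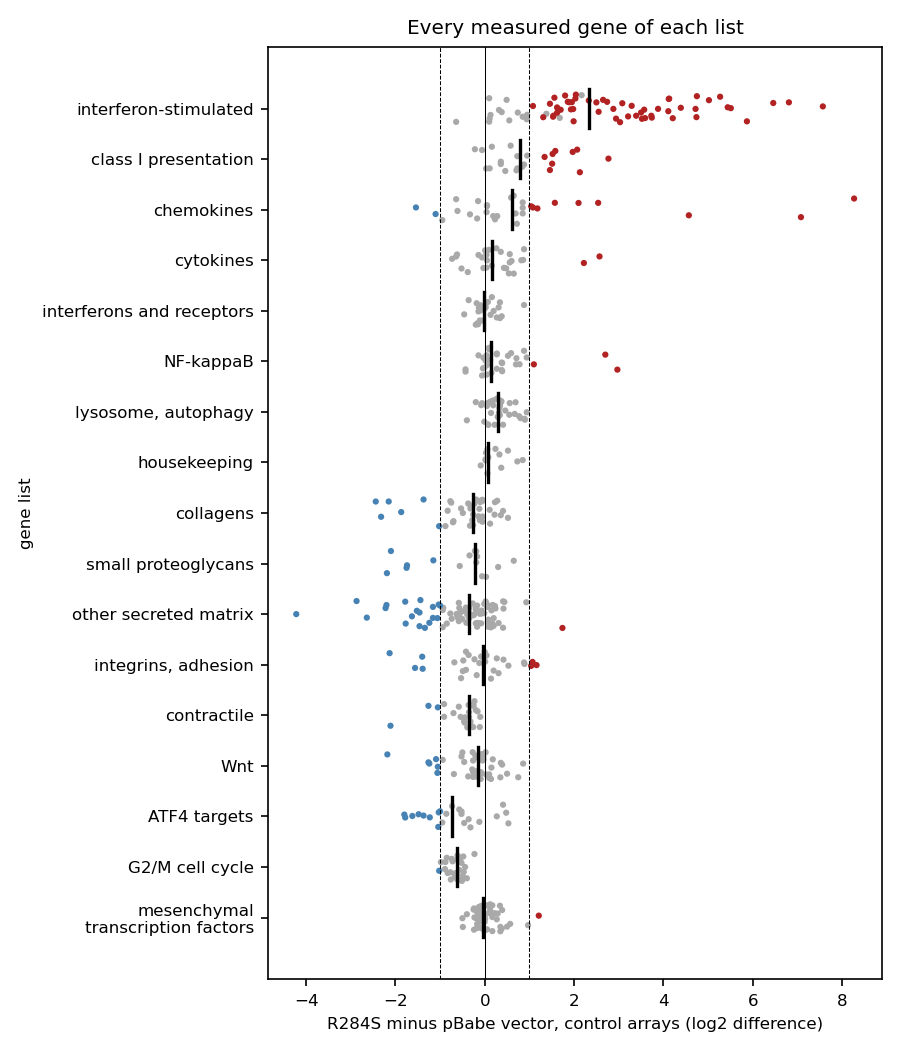
R284S minus vector log2 difference on the control arrays for every measured gene of 17 lists (1 point per gene, spread vertically at random; black bars are list medians, dashed lines the 2-fold mark, red and blue the counted genes). Interferon-stimulated genes have a median of 2.33, interferons and receptors -0.02, and ATF4 targets -0.73.

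Did a second, separate pair of arrays give the same difference? The R284S and vector cells given dsDNA share no array with the control pair. Of the 256 genes higher in R284S control cells, 255 were also higher with dsDNA (99.6%) and 189 passed the 2-fold rule again (73.8%), where 1.13% of all genes passed. Of the 160 lower genes, all 160 were lower with dsDNA and 127 passed again (79.4%), against 0.848% of all genes. The median difference of the higher genes was 1.53 in control cells and 1.38 with dsDNA, and that of the lower genes -1.37 and -1.29. Over all genes the 2 differences had a correlation of 0.64, given as a description, since genes are not independent and each construct may be 1 population measured in both treatments.

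The difference in interferon-stimulated genes was smaller with dsDNA. R284S cells changed by a median of 0.06 with dsDNA over the 69 genes, and vector cells by 0.74. The list's median difference from vector was 2.33 in control cells and 1.86 with dsDNA. Isg15 read 10.92 in R284S and 8.34 in vector cells with dsDNA, a difference of 2.58 beside 4.72 in control cells. Over the 142 matrix genes the median change with dsDNA was -0.02 in R284S and -0.03 in vector cells, and 27 of the 30 lower genes passed the rule again.

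**Figure D5:**
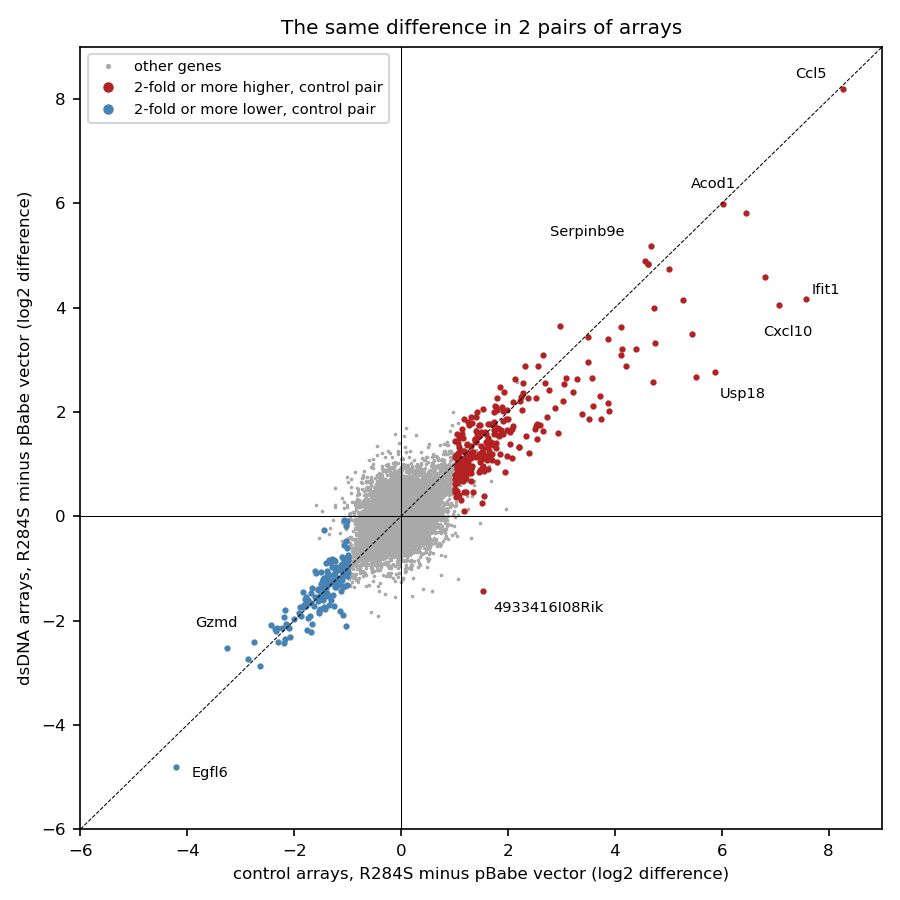
R284S minus vector log2 difference on the dsDNA arrays (vertical) against the same difference on the control arrays (horizontal), 1 point per gene. The dashed line marks equal differences. Ccl5 lies on it at 8.27 and 8.20, Ifit1 falls below it at 7.57 and 4.17, and Egfl6 lies at -4.22 and -4.80.

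The one test the design allows averages over both treatments. An additive limma fit of construct and treatment over all 8 arrays, adjusted by Benjamini-Hochberg across the 22180 genes and read at 0.05, called 226 genes that rose in R284S cells (1.02%) and 227 that fell (1.02%). Its p-values set the average difference against how unevenly dsDNA acted in the 4 constructs, not against separate cultures. Of the 256 higher genes 140 rose, and of the 160 lower genes 129 fell. The fit includes the R284S and vector control arrays whose difference chose these genes. Fit calls for genes picked by their control difference are therefore no independent check of that difference. The 226 and 227 calls dropped sharply whichever 1 of the 4 R284S and vector arrays was left out. Those fits hold fewer arrays and leave 1 array for a construct, and the reason for the drop was not tested. With only the 4 R284S and vector arrays 1 gene rose and 0 fell, and without the N154S pair 50 rose and 79 fell.

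Of the 142 matrix genes 36 fell and 2 rose, and 16 of the 36 also passed in each of the 4 fits that left out 1 array. Egfl6 fell by 4.51 ± 0.20 (SE), with a limma adjusted p of 0.00165 and at most 0.026 without any 1 array. Col3a1 fell by 2.26 ± 0.14, with a limma adjusted p of 0.00187 and at most 0.0278, and Col6a1, Col6a2 and Col6a3 fell by 1.90, 2.10 and 2.23. Aspn, Fmod, Prelp, Podn, Dpt, Gpc3 and Abi3bp also passed in all 4 of those fits. Col1a1 fell by 1.27 ± 0.13 with a limma adjusted p of 0.00633, but up to 0.0823 without 1 array. Of the smooth muscle genes Actg2, Des and Cnn1 fell, the last 2 in none of the fits without an array, and of the ATF4 targets 10 fell, of which 0 passed in all 4 fits without an array.

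Of the 69 interferon-stimulated genes 42 rose and 0 fell, and 5 of the 42 passed in all 4 fits without an array. These 5 were Zbp1, Oasl2, Irf7, Bst2 and Xaf1. Zbp1 rose by 4.36 ± 0.26 with a limma adjusted p of 0.00187, at most 0.0261 without any 1 array. Ccl5 rose by 8.23 ± 0.90 with a limma adjusted p of 0.00921, at most 0.101. Acod1, with a fitted difference of 6.01 ± 1.59 and a limma adjusted p of 0.141, and Rsad2, at 4.88 ± 0.98 and 0.0643, did not pass. Of the 9 chemokines higher in control cells, Ccl5 and Cxcl10 rose. Cxcl3, Cxcl9, Cxcl11, Cxcl16, Ccl3, Ccl4 and Ccl8 did not pass, and neither did Tnfaip3, Nos2, Il1a and Il33. Of the 15 matrix metalloproteinases Mmp12 rose, and Mmp2 and Mmp23 fell. Of the G2/M genes 8 of 30 fell, and of the lysosome and autophagy genes 5 of 37 rose, among them Gpnmb and Gla. These G2/M, lysosome and autophagy calls were not kept in the fits that left out an array.

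How far did the other STING lines share the pattern? Their comparisons use the same vector array, so values are only set side by side. Over the 256 genes higher in R284S control cells, the median difference from vector was 1.53 in R284S, 1.36 in N154S and 0.36 in hSTING control cells. Over the 160 lower genes it was -1.37 in R284S, -0.92 in N154S and -0.27 in hSTING control cells. The interferon-stimulated list had medians of 2.33 in R284S, 3.29 in N154S and 2.10 in hSTING, and in 59 of its 69 genes the N154S signal was above the R284S signal. Of the 9 chemokines higher in R284S, 7 had their highest control signal in R284S cells, Cxcl9 and Ccl8 being the others. On the dsDNA arrays, which were not used to choose them, R284S was highest in 1 of the 9. N154S was above R284S there in 7 of the 9. The collagens had medians of -0.26 in R284S, -0.16 in N154S and -0.09 in hSTING, and the G2/M list -0.62, -0.38 and 0.02.

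R284S was not tested against N154S. The number of genes 2-fold apart from vector in control cells was 256 higher and 160 lower in R284S. It was 223 higher (1.01%) and 90 lower (0.406%) in N154S, and 92 higher (0.415%) and 4 lower (0.018%) in hSTING. R284S had the lowest of the 4 control signals in 152 of the 160 lower genes and in 28 of the 30 lower matrix genes, and in 24.3% of all genes. On the dsDNA arrays, which were not used to choose the genes, it had the lowest signal in 106 of the 160 (66.2%). It did so in 24 of the 30 (80.0%) and in 21.3% of all genes. Since choosing the genes puts R284S below vector, and all 160 stayed below it with dsDNA, neither share of all genes is a like background. With dsDNA, the median difference from vector over the 256 genes was 1.38 in R284S, 1.59 in N154S and 1.55 in hSTING cells. Over the 160 lower genes the medians with dsDNA were -1.29 in R284S, -1.16 in N154S and -0.53 in hSTING cells.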

How the data were processed

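Gene expression was measured on 8 Affymetrix arrays, 1 per construct and treatment. Per the labels' protocols, 300 ng of total RNA was prepared with the GeneChip WT PLUS kit, and the submitters' processing notes name Affymetrix Expression Console 1.3.1.187. The deposited values are log2 signals of 41345 probe sets. How they were summarised and normalized is not stated. Sorted by size, the values of each pair of arrays lay within 0.25 of each other.

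Probe sets with 1 symbol (23521) were kept, and 1814 with several and 16010 not listed were left out. For 1082 genes with several probe sets the one with the highest mean signal was used. Differences of 2 arrays carry no test. The additive fit used limma 3.58.1 in R 4.3.3, with 3 residual and 4.03 prior degrees of freedom. On data simulated from the same additive model it recovered 39 of 100 genes changed 2-fold and 91 of 100 changed 4-fold, with 2 false calls. The simulated noise was random and normal, so it does not check how an uneven dsDNA effect across constructs would act on the fit. Tables were handled in Python 3.11.15. Named genes were the 15 highest and 15 lowest, up to 8 passing members of a list in each direction, all members of the interferon, DNA-sensing and reference lists, and members shown because they did not pass. The comparison, lists and rules were chosen with earlier results of these data known. The number of arrays limits the precision.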

Additional observations from a re-analysis of the deposited data

Results flagged for a closer look

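The gene 4933416I08Rik went opposite ways in the 2 pairs of arrays. It read 4.48 in R284S and 2.95 in vector control cells, a difference of 1.53, but 3.12 in R284S and 4.55 in vector cells with dsDNA, a difference of -1.43. It was the single gene counted in both pairs with opposite signs, its signals lay near or below the array medians, and the difference between treatments was not tested. The limma fitted difference was 0.05 ± 0.59 with an adjusted p of 0.984.

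Signal outside the named genes also differed between the control arrays. Of 1814 probe sets with several symbols, 34 (1.87%) were 2-fold or more higher in R284S than in vector control cells and 6 (0.331%) lower, with differences up to 4.04. Of 16010 probe sets not listed in the annotation, 96 (0.60%) were higher and 0.962% lower, with differences from -3.73 to 6.66. They are unnamed here.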

How the results depend on the processing

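No paired analysis was possible because the labels carry no replicate numbers, but the limma fit holds treatment as a term and so compares constructs within treatment. Requiring the brighter array to reach its 75th percentile gave 160 higher genes in control cells, and 144 higher and 115 lower with dsDNA. The other alternatives for the 2 pairs (no filter on dim genes, quantile normalization, the mean of a gene's probe sets) kept both counts within 1.5 times, and so did the list counts, except that quantile normalization put 2 G2/M genes past the mark. In the limma fit, a filter on dim genes gave 343 that rose and 354 that fell, a trended and robust variance 392 and 462, only the 4 R284S and vector arrays 1 and 0, and omission of the N154S pair 50 and 79. Without the hSTING pair 363 rose. Leaving out 1 R284S or vector array gave 22 to 69 that rose and 32 to 67 that fell. Of the named genes' control differences, 449 of the recomputed values stayed on their side of the 2-fold mark and 11 did not. Of their recomputed fitted differences 1666 stayed on their side of the limma threshold, 808 no longer passed and 55 newly passed. For those with a shift in the count of calls the cause was not tested, except that fits without arrays hold fewer samples.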

Other observations

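The Hox genes, which record position along the body and limb axes, were looked at after their values were seen. The 5′ end of the Hoxd cluster was higher in R284S control cells: Hoxd13 read 7.71 in R284S and 6.56 in vector control cells, Hoxd11 6.83 in R284S and 5.64 in vector control cells, and Hoxd12 4.94 in R284S and 3.88 in vector control cells. In N154S control cells they read 7.55, 6.50 and 4.74, and in hSTING control cells 6.57, 5.96 and 4.17. All 3 rose in the fit, with limma adjusted p values of 0.0127 for Hoxd13, 0.0375 for Hoxd11 and 0.014 for Hoxd12. Of the 8 measured Hoxd genes these 3 were counted, and 0 of 9 Hoxa, 0 of 10 Hoxb and 0 of 9 Hoxc genes passed the 2-fold mark in either direction.

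Genes in no list that stood out, also chosen after their values were seen, included Neurl3, a ubiquitin ligase gene, at 10.13 in R284S control cells, a difference of 4.63 from vector, and Lipg, endothelial lipase, at 9.34 in R284S and 5.85 in vector control cells. Lower ones included Ptprz1, a receptor of pleiotrophin, at 6.74 in R284S and 8.63 in vector control cells, beside Ptn itself at 7.34 in R284S and 9.25 in vector control cells. The tendon gene Tnmd read 5.04 in R284S and 6.71 in vector control cells.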
